A study of Homo sapiens with 8 samples.

Results

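The cells described here carried SHH together with genes of the floor plate or of motile cilia. A cell was selected when its deposited value was 1 or more for SHH and for at least 2 of SPON1, FOXA2, FOXJ1, DNAH9, DTHD1 and VWA3A, and 0 for TTR (a choroid plexus transcript) and MKI67 (a proliferation marker). The rule found 511 of 43693 cells (1.17%), and 39 of 46 culture tags held at least 1. These 511 cells are called selected SHH cells below. The values of SHH and of the 6 genes chose the cells, so they are given as a description, with no test.

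All cells came from cultures of H1, a human embryonic stem cell line, grown as flat (2D) or three-dimensional (3D) neural cultures, and were profiled by split-pool single-cell RNA-seq in 8 sublibraries of the same pool. The start of each cell name carries a culture tag. The tags 2DCocu (12 tags) and 3DFusi (10) end in AcCoc, AcMor or Vehic, and 2DMono (6) and 3DMono (6) in AcDop, AcMor or Vehic. The series text names cocaine, morphine and dopamine, but the labels define neither these endings nor the words Mono, Cocu and Fusi. Another 5 arrangements carry no treatment ending: 2DProto2Fjo (2 tags), 2DProto3Wu (2), 2DProto4Nic (2), 3DProto1For (3) and 3DProto2Xia (3). Every group is of the same line, and the 3D cultures were dissociated with papain; no group differs in genotype by its labels. The labels do not say whether numbered tags were separate cultures, so n counts tags and p-values measure the spread between tags only, which may be technical.

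The floor plate is the ventral midline of the neural tube. It is induced by hedgehog signal from the notochord, switches on FOXA2 and FOXA1, and then secretes sonic hedgehog (SHH) itself, along with netrin (NTN1), SLIT proteins and F-spondin (SPON1), which steer commissural axons. Ependymal cells line the mature ventricles, bear many motile cilia under the control of FOXJ1, GMNC and MCIDAS, and express S100B. Floor plate cells also carry cilia and can express FOXJ1, so ciliary genes alone do not separate these classes.

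Depth and shared material were as follows. The median total per cell was 19266 counts in selected SHH cells, 15967 in ciliated SHH-zero cells and 12776 in all cells, so the selected cells were deeper over all tags. By arrangement, they were not deeper than ciliated SHH-zero cells in 3DFusi (19380 against 19509) or 3DMono (21100 against 21305). In the other arrangements they were. Sublibraries held between 0.869% and 1.39% selected SHH cells, and a chi-square test found no difference beyond counting error (10.6 on 7 degrees of freedom, p = 0.156). Of the barcode triples, 2393 occurred in more than 1 sublibrary, and 55 selected SHH cells carried such a triple. No doublet caller was run. Of the selected cells, 211 had exactly 2 of the 6 genes and 250 had an SHH value below 2. Just outside the rule stood 315 cells with SHH and 1 of the 6 genes, 72 cells with TTR, 137 with MKI67, and 1 with an SHH value between 0 and 1.

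The 6 genes were met in different ways in different arrangements. SPON1 was present in 86.7% of the selected cells, DNAH9 (an axonemal dynein heavy chain) in 78.1%, VWA3A in 75.5%, DTHD1 in 34.2%, FOXJ1 (the ciliary transcription factor) in 14.7% and FOXA2 (the floor plate transcription factor) in 8.81%. SPON1 or FOXA2 came with a ciliary gene in 87.1% of the cells. The 3DFusi cells met the rule most fully: 55.8% of the 217 had 4 or more of the 6 genes, 15.7% had FOXA2, 25.8% FOXJ1 and 63.6% DTHD1. In 2DCocu, 6.96% of the 158 had 4 or more, 6.33% had FOXA2, 3.80% FOXJ1 and 5.70% DTHD1.

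The 42 selected cells of 2DProto3Wu went against the label. None of them had FOXA2 or DTHD1, and 37 of 42 had exactly 2 of the 6 genes. Of the 42, 16 (38.1%) had ciliary genes only. These traits were not particular to 2DProto3Wu. FOXA2 was also absent from the selected cells of 2DMono (11 cells), 2DProto2Fjo (4), 2DProto4Nic (5), 3DMono (10) and 3DProto1For (27). DTHD1 was absent from those of 2DMono, and all 4 cells of 2DProto2Fjo had ciliary genes only. SHH was common in 2DProto3Wu whatever the other genes: as deposited it was present in 14.4% of cells with none of the 6 genes, TTR or MKI67. FOXA1 stood at 0.717 and 2.04 CPM (the counts of a class in a tag, summed and scaled to a common total) in its 2 tags. The name floor plate-like is therefore not used for the 2DProto3Wu cells, and results are given with and without them where they bear on a result.

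How often SHH was present beside the 6 genes is given here as a description, since both entered the rule. Only cells with 0 for TTR and MKI67 entered, read after thinning for the thinned shares. Each cell was thinned to 5000 counts (1948 cells were shallower and left out, 7 of them selected cells). After thinning, SHH was present in 21.7% of 3DFusi cells with 2 or more of the 6 genes and in 0.994% of those with none. In 2DCocu the shares were 4.94% and 0.538%, in 3DMono 7.41% (6 of 81 cells) and 0.522%, and in 3DProto1For 5.53% (11 of 199) and 1.25%. They lay nearer to each other in 3DProto2Xia, at 2.94% and 1.97%, and in 2DProto3Wu, at 9.09% (2 of 22 cells) and 5.46%. In 2DMono, 2DProto2Fjo and 2DProto4Nic no cell with 2 or more of the genes had SHH: 0 of 149, 0 of 85 and 0 of 42 cells. Counts of 0 allow up to 2.01%, 3.53% and 7.14% of cells with an SHH count at that depth (3 counts of the total, counting error only), which does not bound expression. Those shares stand against 0.583%, 0.339% and 0.334% of the cells with none. Without thinning, 24.6%, 9.05% and 29.8% of the cells with 2 or more genes had SHH in 3DFusi, 2DCocu and 2DProto3Wu.

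**Figure D1:**
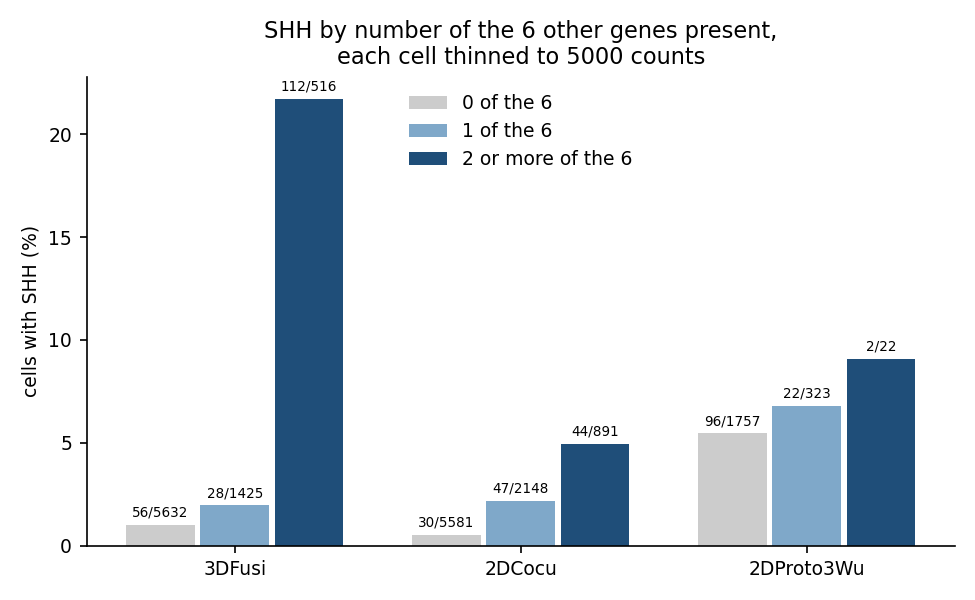
Share of cells with SHH (y axis, %) by how many of the 6 other genes were present, in 3 arrangements, after thinning each cell to 5000 counts; bars are shares, and the numbers over the bars are cells with SHH over all cells. The share with 2 or more genes was 21.7% in 3DFusi and 4.94% in 2DCocu, and the 9.09% of 2DProto3Wu comes from 2 of 22 cells.

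Selected SHH cells were scarce in the Mono arrangements and more frequent in 3DFusi, 2DCocu and the 3DProto arrangements. The share of the cells of a tag was 2.47% ± 1.89 in 3DFusi (SD, n = 10), 1.51% ± 0.842 in 2DCocu (n = 12), 0.136% ± 0.137 in 3DMono (n = 6) and 0.120% ± 0.185 in 2DMono (n = 6). Tags of 2DCocu ran from 0.556% to 3.19% with a median of 1.39%, and those of 3DFusi from 0.244% to 5.68% with a median of 2.05%. In 2DMono, 4 of 6 tags held none, and the counts there allowed a share of up to 0.946% in the smallest. The Proto arrangements stood at 1.81% ± 0.273 (2DProto3Wu, n = 2), 1.47% ± 0.447 (3DProto1For, n = 3), 1.15% ± 0.539 (3DProto2Xia, n = 3), 0.187% ± 0.264 (2DProto4Nic, n = 2) and 0.165% ± 0.0185 (2DProto2Fjo, n = 2). The level of 2DProto3Wu depended on depth and on the entry required: its selected cells had a median total of 31897 counts against 16327 in all its cells, and its mean share was 0.0917% after thinning to 5000 counts, 0.128% with an entry of 2 or more and 0.219% with at least 3 of the 6 genes. After thinning, 3DFusi stood at 1.44%, 2DCocu at 0.445%, 3DProto1For at 0.709%, 3DProto2Xia at 0.348%, 3DMono at 0.0747% and 2DMono at 0.

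Arrangements were compared within their shared treatment endings, with p-values adjusted over 4 comparisons. Over AcMor and Vehic tags, 2DCocu exceeded 2DMono by 1.72 percentage points (1.90% ± 0.768, n = 8, against 0.180% ± 0.207, n = 4). The two-sided exact permutation test gave p = 0.00444, the smallest it could give, and 0.0178 after adjustment. Every 2DCocu tag was above every 2DMono tag in that comparison. 3DFusi exceeded 3DMono by 2.99 points over the same endings (3.13% ± 1.82, n = 6, against 0.142% ± 0.174, n = 4), with an exact p of 0.03 and an adjusted p of 0.06. Over all 3 endings, 3DFusi against 2DCocu gave 1.07 points, averaged within endings (exact permutation p = 0.0569, adjusted 0.0758), and 3DMono against 2DMono 0.0165 points (exact p = 0.833). Without any 1 of the 4 2DMono tags of that comparison, the 2DCocu difference was 1.63 or 1.81 points and its adjusted p 0.0533; the exact p was then the smallest the remaining tags allow, so the missed threshold says nothing of the tag left out. Single tags moved the 3DFusi comparisons across the threshold by exact permutation. The adjusted p of 3DFusi against 3DMono was 0.05 or less without 3DFusi AcMor 3, Vehic 1, Vehic 3 or Vehic 4. It was so too without 3DMono Vehic 1 or Vehic 2 (lowest 0.0222, of 10 tags in the comparison). That of 3DFusi against 2DCocu passed in 3 of 22, among them that without 3DFusi Vehic 1 (0.00889).

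**Figure D2:**
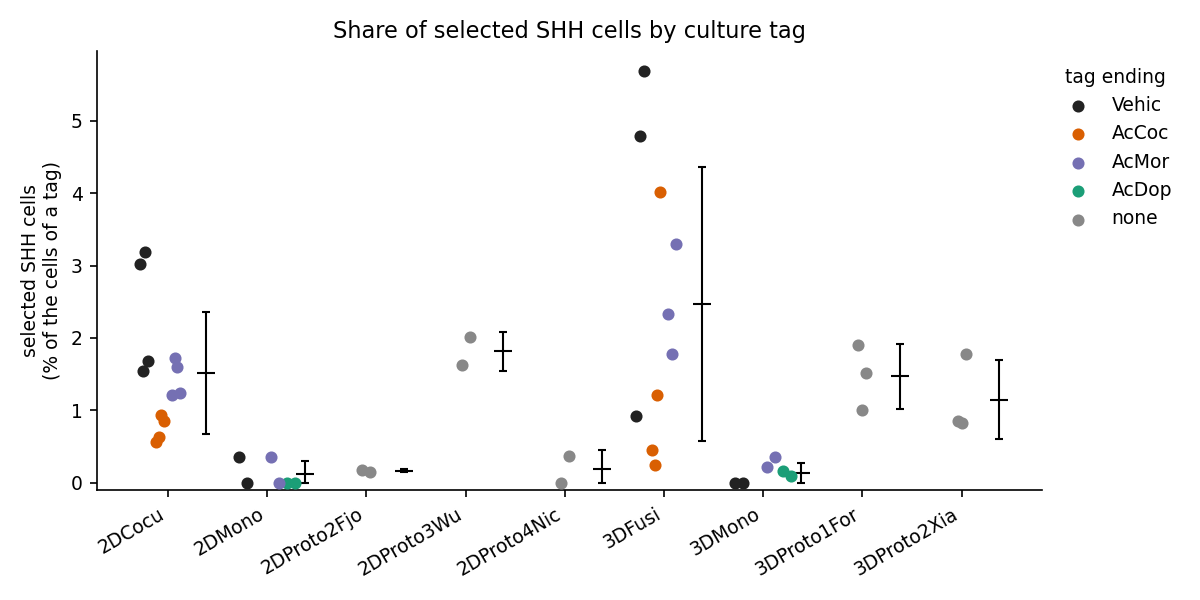
Share of selected SHH cells (y axis, % of the cells of a culture tag) in each of the 46 tags (points, coloured by the ending of the tag) of the 9 arrangements, with the mean and SD beside them (the lower whisker stops at 0). The 2DCocu and 3DFusi tags reach 3.19% and 5.68%, and no 2DMono or 3DMono tag passes 0.361%.

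The design could not call a treatment ending for the share: the smallest exact p any of the 8 comparisons can give is 0.0286, and none can pass after adjustment over the 8. In 2DCocu, AcCoc tags held 0.741% ± 0.176 (n = 4) and Vehic tags 2.36% ± 0.866 (n = 4). The 4 AcCoc tags were at 0.556%, 0.633%, 0.846% and 0.930%, all below the lowest Vehic tag at 1.54%. That full separation gave the smallest exact permutation p that 4 against 4 tags allow, 0.0286, and 0.229 after adjustment. In 3DFusi the AcCoc tags held 1.48% ± 1.74 (n = 4), the AcMor tags 2.46% ± 0.768 (n = 3) and the Vehic tags 3.79% ± 2.53 (n = 3), and the groups overlapped (exact p = 0.2 and 0.4, adjusted 0.533 for both). The AcMor tags of 2DCocu held 1.44% ± 0.259 (n = 4; exact p = 0.143, adjusted 0.533). In 3DMono the endings lay above Vehic, at 0.123% for AcDop and 0.285% for AcMor (n = 2 each) against 0 in both Vehic tags, and in 2DMono AcDop was at 0, AcMor at 0.180% and Vehic at 0.179%. Exact comparisons of 2 against 2 tags cannot go below p = 0.333.

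Selected SHH cells were then compared with ciliated SHH-zero cells of the same tag, which had no SHH, no TTR, no MKI67 and at least 2 of FOXJ1, DNAH9, DTHD1 and VWA3A. This asks whether the SHH cells resemble floor plate more than other ciliated cells do, in genes the rule did not use. SHH itself separates the classes, and SPON1 or FOXA2 could count only for the selected cells. Higher floor plate genes in the selected cells are therefore near to what the rule used. Counts were summed per tag and class over the 19 tags with at least 10 cells of each (418 selected and 1277 ciliated cells) and tested with edgeR's quasi-likelihood test with the tag as a block. Of 13118 genes tested, 313 were higher (2.39%) and 494 lower (3.77%) in the selected cells at an adjusted p of 0.05 or less, and the median log2 fold change of all genes was -0.01.

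Floor plate genes rose in the selected SHH cells. Of the 12 genes of that list, 10 were tested; 6 rose, 1 fell, and the median log2 fold change was 1.13. FOXA1, the partner of FOXA2 in the ventral midline, rose by 2.37 ± 0.26 on the log2 scale (edgeR adjusted p = 3.01e-06, higher in 18 of 19 tags). CORIN, a protease that marks ventral midline progenitors, rose by 1.84 ± 0.34, SULF1, a sulfatase that modifies heparan sulfate, by 1.51 ± 0.22, NTN1 by 1.29 ± 0.18 and SLIT1 by 0.96 ± 0.16. SLIT2 (0.55), LMX1B (0.41) and SLIT3 (0.07) did not pass. FERD3L and NKX2-2 were too low to test, at 0.492 and 3.90 CPM over all selected cells against 0.0262 and 1.86 in ciliated cells.

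The levels by tag show the size of these differences. FOXA1 in 3DFusi ran from 48.4 to 128 CPM in selected SHH cells (median 77.8, 8 tags) and from 1.86 to 35.5 in ciliated cells (median 7.29). In 2DCocu, FOXA1 ran from 29.6 to 48.6 CPM (median 43.4, 6 tags) against 10.1 to 24.0 (median 12.3). The groups did not overlap in either arrangement. NTN1 in 3DFusi ran from 938 to 1935 CPM (median 1567) against 259 to 856 (median 346), and in 2DCocu from 942 to 1619 (median 1049) against 401 to 736 (median 585), again without overlap. In 2DProto3Wu, NTN1 was at 94.0 and 158 CPM in selected cells and 122 and 240 in ciliated cells, so the selected cells were not the higher ones there.

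SLIT1, a secreted axon guidance ligand, ran from 199 to 408 CPM in selected 2DCocu cells (median 272) against 92.6 to 149.9 in ciliated cells (median 131), with no overlap. In 3DFusi SLIT1 ran from 266 to 865 CPM (median 466.2) against 122 to 363 (median 214); the ranges overlapped, but SLIT1 was higher in the selected cells of all 8 tags. In both 2DProto3Wu tags SLIT1 was lower in the selected cells, at 208 and 356 CPM against 252 and 682. SULF1 in 3DFusi ran from 332 to 1846 CPM (median 827) against 70.1 to 308 (median 177), and in 2DCocu from 509 to 974 (median 582) against 174 to 392 (median 291), without overlap in either. CORIN separated the arrangements: in 3DFusi it ran from 67.5 to 626 CPM (median 163) against 7.29 to 65.9 (median 21.4), while in 2DCocu it ran from 0 to 20.3 (median 4.65) against 6.68 to 11.5 (median 10.4). The CORIN contrast between the cell classes was 2.92 in 3DFusi and -0.02 in 2DCocu on the log2 scale, and their difference of 2.94 passed the test (edgeR adjusted p = 0.00735).

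LMX1A, a factor shared by the roof plate and the midbrain floor plate, went the other way. It fell by 1.67 on the log2 scale (SE 0.35, edgeR adjusted p = 0.00375), a call lost in 5 of 12 other settings. In 2DCocu it ran from 0 to 47.8 CPM in the selected cells (median 23.2) and from 103 to 291 in ciliated cells (median 226), with no overlap. In 3DFusi the ranges overlapped, at 21.9 to 191 CPM (median 67.3) against 32.8 to 259 (median 138), and within 3DFusi the LMX1A contrast of -0.82 did not pass (adjusted p = 0.2).

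**Figure D3:**
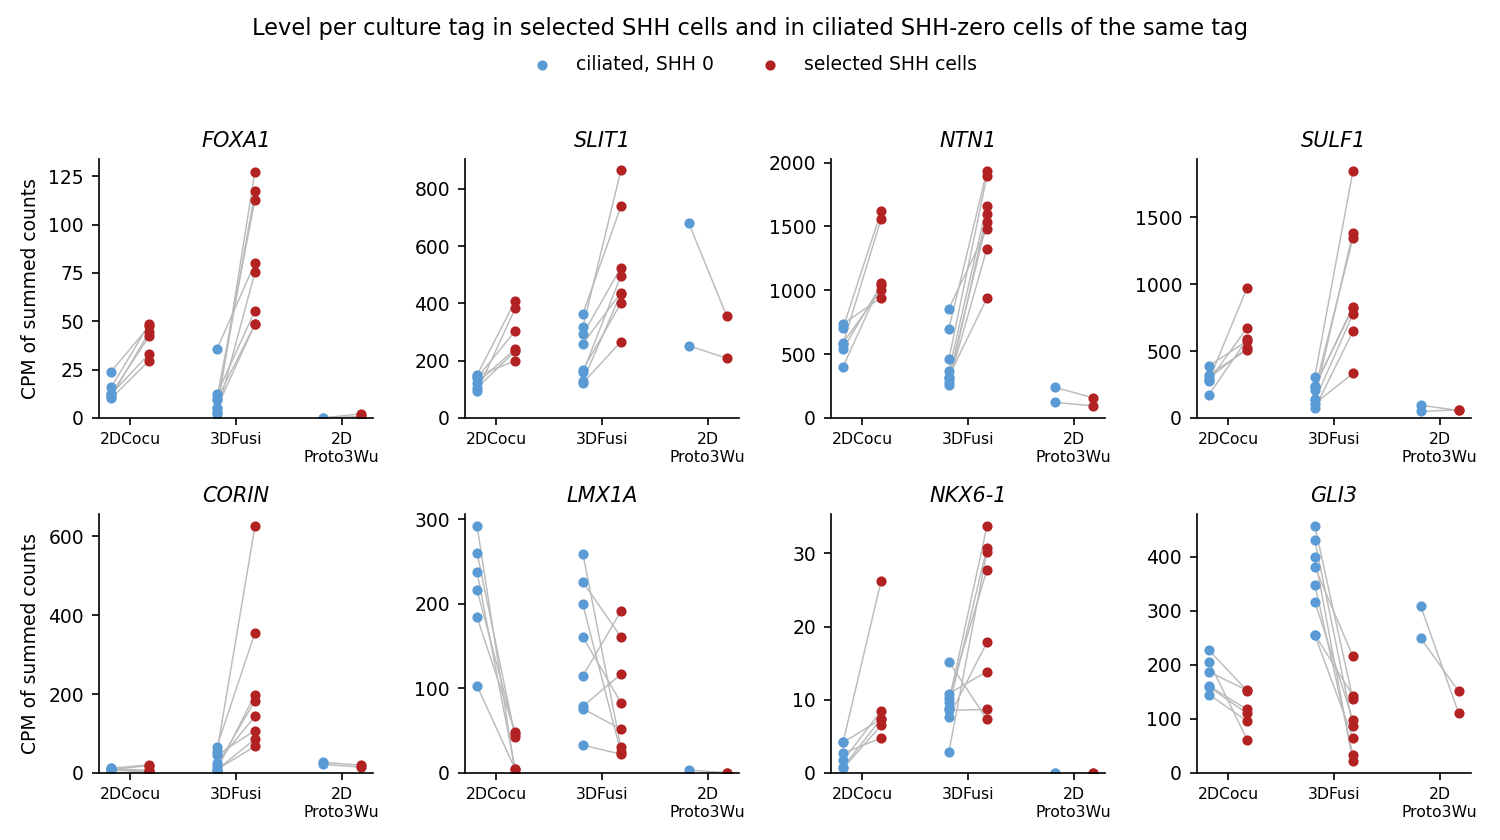
Level of 8 genes (y axis, CPM of summed counts, linear scale from 0) in ciliated SHH-zero cells (blue) and selected SHH cells (red) of the same culture tag, joined by a line, in 2DCocu (6 tags), 3DFusi (8) and 2DProto3Wu (2). FOXA1, NTN1 and SULF1 lie higher in the selected cells of every 2DCocu and 3DFusi tag, CORIN does so in 3DFusi, and GLI3 lies lower in every tag shown.

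Beside FOXA1, the genes with the largest rises included its neighbours. By the rule for named genes (largest changes that passed the test, with the same direction in all 19 tags and at least 10 CPM), the top of the list held the long non-coding ENSG00000259048 (log2 fold change 2.32 ± 0.27), GALR1, a galanin receptor (2.21 ± 0.26), and TTC6 (2.10 ± 0.26). In GENCODE v29 on GRCh38, FOXA1 lies at chr14:37589984-37596059 on the minus strand, TTC6 at chr14:37595847-38041442 on the plus strand and ENSG00000259048, annotated as antisense, at chr14:38034287-38194281 on the minus strand. TTC6 therefore overlaps both of the others, and no label or header says whether the counting used strand. Reads in the shared stretches therefore cannot be told apart. TTC6 ran from 1398 to 3350 CPM in selected 3DFusi cells (median 2777) against 94.8 to 1477 in ciliated cells (median 289.9).

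FOXA1 and TTC6 start divergently. RefSeq (GRCh38.p14) places the FOXA1 start at 37595249 on the minus strand and the TTC6 start at 37595629 on the plus strand, and the 121 bases common to the 250-base windows before both starts are shown because both genes rose. They are given on the plus strand, chr14:37595379-37595499. By the GENCODE v29 coordinates the stretch lies within the span of FOXA1, in none of its exons. Capitals mark TGTTTGC, a core sequence that forkhead factors can bind, which a search on both strands (TGTTTGC or GCAAACA) found once, from base 100.
FOXA1 and TTC6 shared window: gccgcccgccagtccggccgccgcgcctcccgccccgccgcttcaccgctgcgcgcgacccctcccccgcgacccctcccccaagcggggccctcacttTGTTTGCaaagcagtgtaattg
The same letters occurred in 1366 of 35116 RefSeq promoter windows (3.89%; each 250 bases before to 50 after a start). The match is a description of these letters and not a measured binding site.

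The other named genes that rose were PLPPR1 (1.42 ± 0.15), FOXP2 (1.40 ± 0.14), a forkhead factor of neural tissue, KCNMA1 (1.39 ± 0.13), a calcium-activated potassium channel, HECW2 (0.89 ± 0.11), FRMD4A (0.87 ± 0.08), NCAM1 (0.71 ± 0.07), a neural cell adhesion molecule, and KIF5C (0.68 ± 0.10), a neuronal kinesin. FOXP2 stood at 655 ± 300.5 CPM in the selected cells and 273 ± 171 in ciliated cells (SD, n = 19 tags each), and KCNMA1 at 679.7 ± 299.6 against 250.4 ± 109. The named genes that fell were MIR646HG (-2.44 ± 0.35), OTX2-AS1 (-2.08 ± 0.25), F3, the coagulation tissue factor (-1.92 ± 0.31), EMX2OS (-1.79 ± 0.30), CA2, a carbonic anhydrase (-1.78 ± 0.27), ADAMTS3 (-1.73 ± 0.23), MASP1 (-1.71 ± 0.20), LINC01833 (-1.64 ± 0.27) and the uncharacterised ENSG00000286757 (-1.82 ± 0.22) and ENSG00000271945 (-1.69 ± 0.23). All 10 were lower in each of the 19 tags, which the rule for named genes required. OTX2-AS1 stood at 34.1 ± 33.1 CPM against 139.7 ± 70.9, and MASP1 at 20.7 ± 22.1 against 59.3 ± 27.6.

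Ependymal genes were not higher in the selected SHH cells. Of the 10 genes of that list, 5 were tested, and 3 were lower against 3.77% of all genes. S100B fell by 1.85 ± 0.34 on the log2 scale. It entered only 8 of 12 other settings and 17 of 19 fits without a single tag, and kept its call in those. GFAP fell by 1.33 ± 0.29 (a call lost in 5 of 12 other settings) and SPARCL1 fell by 0.76 ± 0.17 (lost in 2 of 12). CD24 (0.13) and PROM1 (-0.25) did not pass. The other 5 were below 1 CPM over all selected SHH cells: AQP4 at 0.415, TMEM212 at 0.515, CCDC153 at 0.794, RARRES2 at 0.225 and MIA at 0.488. AQP4 stood at 2.34 CPM in ciliated cells, and the remaining 4 were below 1 CPM there too. The ciliated cells themselves thus showed little of these ependymal markers, and the comparison does not set the selected cells against mature ependyma. S100B ran from 0 to 13.7 CPM (median 2.61) in selected 3DFusi cells and from 0 to 19.1 (median 11.5) in ciliated ones, lower in the selected cells in 7 of 8 tags and tied in the other. The summed level of the list ran from 107 to 804 CPM over the 19 tags in selected cells (median 213) and from 99.3 to 680 in ciliated cells (median 326).

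Of 12 regulators of multiciliation, 5 were tested and none passed over all tags (RFX3 -0.27, RFX2 0.11). Within arrangements RFX3 was lower in 2DCocu (-0.72, adjusted p = 0.00299) and RFX2 higher in 3DFusi (0.51, adjusted p = 0.0285). GMNC, which opens the multiciliated programme, was at 1.39 CPM over all selected SHH cells and 4.81 in ciliated cells, and MCIDAS was at 0.0719 (1 count) and 0.169. CCNO was at 0.216 and 0.225.

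Motile axoneme genes differed in their contrast between 3DFusi and 2DCocu. The rule was met unequally: 55.8% of selected cells in 3DFusi, 6.96% in 2DCocu and 2.38% in 2DProto3Wu had 4 or more of the 6 genes. Most of the 6 are ciliary, so differences in the axoneme contrast between arrangements are near to what the rule used. Over all 19 tags none of 24 tested genes passed (median log2 fold change 0.19), and a fit with a contrast per arrangement gave the following. Within 3DFusi 19 of 24 were higher in the selected SHH cells and none lower (background 3.83% higher, 4.35% lower), with a median of 0.79. Within 2DCocu 5 of 24 were lower (CFAP47, DNAH11, DNAI1, HYDIN and SPAG6) and none higher (background 1.96% lower, 1.01% higher), with a median of -0.44. Within 2DProto3Wu 5 were lower (CFAP299, CFAP54, DNAH7, DNAI1 and HYDIN; background 0.274% lower, 0.0305% higher), with a median of -1.21. Within the 3DProto tags no axoneme or floor plate gene passed (background 0.0152% higher, 0.00762% lower), and 9 of 10 floor plate genes were above 0 with a median of 0.78. The difference between the 3DFusi and 2DCocu contrasts passed for 15 of 24 genes, all in the same direction (background 1.49% higher, 0.991% lower). Between 2DCocu and 2DProto3Wu no gene of either list passed (background 0.061% higher, 0.0381% lower).

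SPAG6, a central apparatus protein of the axoneme, was among these genes. In 3DFusi it ran from 83.1 to 191 CPM in selected SHH cells (median 133) against 20.9 to 88.7 in ciliated cells (median 44.9), and was higher in all 8 tags. In 2DCocu it ran from 16.2 to 46.6 (median 28.2) against 53.8 to 97.7 (median 78.8), with no overlap in the other direction. The difference between these contrasts was 3.03 on the log2 scale (edgeR adjusted p = 2.46e-06). HYDIN, another central apparatus protein, ran from 465 to 972 CPM (median 920) against 284 to 737 (median 496) in 3DFusi, and from 214 to 392 (median 286) against 418 to 525.7 (median 471) in 2DCocu (difference 1.42, adjusted p = 0.000425). DNAI1, a dynein intermediate chain, ran from 54.8 to 205 (median 137) against 45.1 to 122 (median 75.6) in 3DFusi, and from 12.9 to 38.0 (median 32.4) against 45.4 to 58.8 (median 51.6) in 2DCocu (difference 1.695, adjusted p = 0.00288).

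The classes were not chosen by the same number of ciliary genes: ciliated SHH-zero cells needed 2 of 4, and selected SHH cells could meet the rule with SPON1 or FOXA2 and 1. An alternative added after seeing the data required at least 2 of the 4 ciliary genes of the selected cells, which 351 had over all tags. The fit kept those in tags with at least 10 cells of each class, and it was not run within single arrangements. In it, 8 of 25 axoneme genes were higher and none lower (background 2.5% and 2.54%). In that fit 7 of 10 floor plate genes were higher and none lower, LMX1A no longer passed (-1.05, adjusted p = 0.09), and 2 of 5 ependymal genes were lower. Without the 2DProto3Wu tags, 7 of 10 floor plate genes were higher and 1 lower, and 3 of 24 axoneme genes were higher (background 2.78% higher, 3.82% lower).

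**Figure D4:**
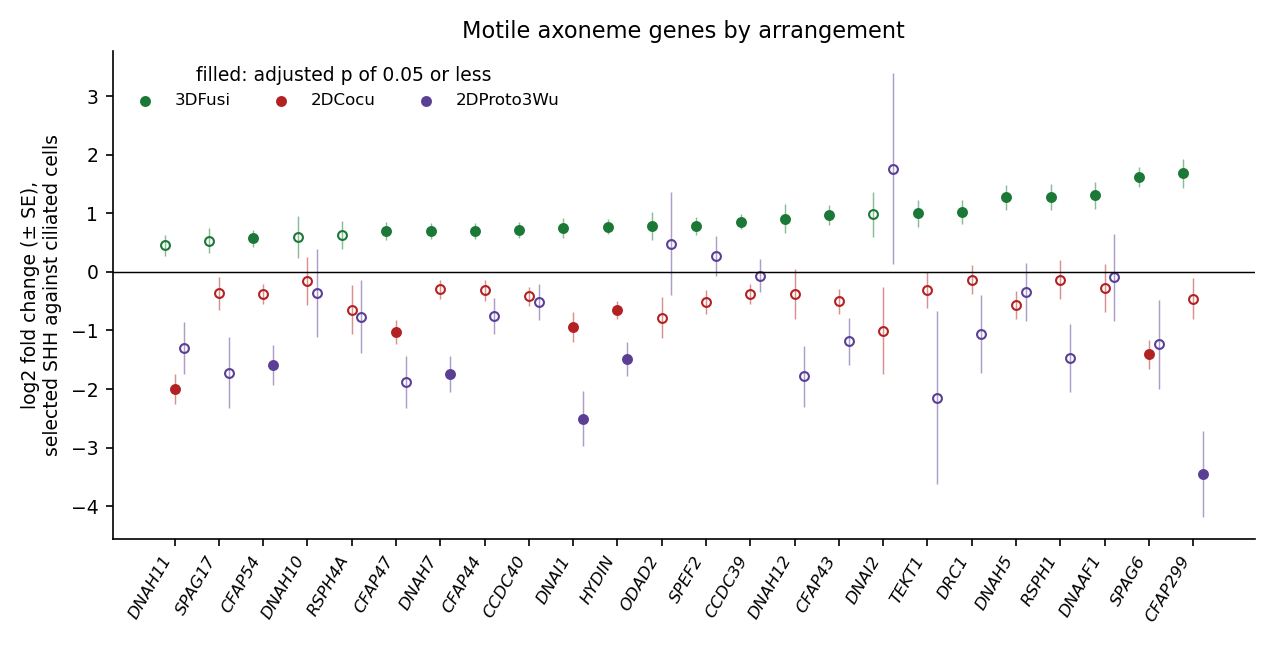
Log2 fold change (y axis, ± SE) of selected SHH cells against ciliated SHH-zero cells for 24 motile axoneme genes (x axis) within 3DFusi (green), 2DCocu (red) and 2DProto3Wu (purple); filled points have an adjusted p of 0.05 or less. The 3DFusi points are all above 0 and the 2DCocu points all below it.

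Genes of the hedgehog pathway that receive or transduce the signal were lower or did not pass in the cells that held SHH, apart from NKX6-1 (background 2.39% higher, 3.77% lower). Among 12 genes for ligand release and reception, 10 were tested: PTCH1, the receptor that is itself a target of the pathway, fell by 0.56 on the log2 scale (SE 0.13, edgeR adjusted p = 0.00573, lower in 17 of 19 tags), the co-receptor BOC fell by 0.68 (SE 0.14, lower in 16 of 19, a call lost in 4 of 12 other settings), and the other 8 did not pass (SMO -0.37, CDON -0.42; CDON passed in 3 of 12 other settings). Of 12 transducers and targets, 6 were tested. GLI3, which acts mainly as a repressor of the pathway, fell by 1.38 (SE 0.21, adjusted p = 0.000101) and was lower in all 19 tags, and GLI2 fell by 1.13 (SE 0.23, a call lost in 2 of 12 other settings). NKX6-1, a ventral homeobox target, rose by 1.33 ± 0.30 (adjusted p = 0.00643). NKX6-1 lost its call with 3DFusi tags only and with at least 20 cells of each class, and PTCH1 with no replicate block and with 2DCocu tags only.

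GLI3 in 3DFusi ran from 21.7 to 216 CPM in selected SHH cells (median 92.4) and from 255 to 457 in ciliated cells (median 365), with no overlap. In 2DCocu it ran from 61.6 to 153 (median 114) against 145 to 226 (median 174), and in 2DProto3Wu it was at 151 and 110 against 249 and 310. NKX6-1 in 3DFusi ran from 7.28 to 33.7 CPM (median 22.8) against 2.81 to 15.2 (median 9.28), higher in 7 of 8 tags, and in 2DCocu from 4.75 to 26.3 (median 7.36) against 0.607 to 4.20 (median 2.17), without overlap. NKX6-1 was at 0 in both classes of 2DProto3Wu. The direct target GLI1 was at 1.62 CPM over all selected cells and 2.47 in ciliated cells, and HHIP at 0.823 and 1.52, too low to test.

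Dorsal and forebrain genes were lower or did not pass. Over all genes tested in this fit 2.39% were higher and 3.77% lower, which is the background for the counts of this paragraph and the next. Of the roof plate and hem list, 4 of 6 tested genes were lower and none higher: RSPO1 fell by 2.56 on the log2 scale, RSPO2 fell by 2.16, RSPO3 fell by 1.88 and WNT8B fell by 1.88, with SE from 0.39 to 0.46. The dorsal factor PAX3 fell by 3.21 ± 0.46 and its relative PAX7 fell by 1.12 ± 0.30. PAX3 ran from 0 to 12.0 CPM in selected 3DFusi cells (median 0.555) and from 16.7 to 148 in ciliated cells (median 68.0), with no overlap. Of the forebrain list, SIX3 (-1.24) and LHX2 (-1.21) were lower among 3 tested, and OTX2 fell by 1.74 ± 0.29. LHX2 is the least firm of these calls (adjusted p = 0.0425), and it was lost without any 1 of 12 single tags and in 8 of 11 other settings, among them depth-matched cells and each of 2DCocu and 3DFusi alone. The PAX7 call was lost without any 1 of 3 single tags and in 2 of 10 other settings, those of RSPO3 and WNT8B in 3 of the other settings each, that of RSPO2 in 2 and those of SIX3 and OTX2 in 1 each. The setting of at least 20 cells of each class, which took SIX3 and OTX2 above the threshold, did the same to SLIT1, EMX2OS and TWIST1.

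Among radial glia genes 3 of 7 tested were lower (PAX6 -1.64, FABP7 -0.99, SLC1A3 -0.63), and PAX6 was lower in all 19 tags. FABP7 (adjusted p = 0.0308) lost its call in 6 of 12 other settings and without any 1 of 5 single tags, and SLC1A3 lost its call in 5 of 12 other settings; PAX6 lost it in none of these. Choroid plexus genes gave 3 lower of 6 tested (OTX2, HTR2C and CA12) and astrocyte genes 3 lower of 6 (GFAP, S100B and SLC1A2). Mesenchymal genes gave 4 lower (COL1A1, COL3A1, PDGFRA and PRRX1) and 1 higher of 7: TWIST1 rose by 1.26 ± 0.34 (adjusted p = 0.0247, above 0.05 without any 1 of 6 3DFusi tags). No neuronal gene of 9 tested passed. EFNB3, an ephrin of the ventral midline, was the only one of 12 guidance genes to pass, with a rise of 1.22 ± 0.25, and it did not pass within 2DCocu (0.49).

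Other sources of SHH were looked for by their markers. TBXT, the defining notochord gene, had 0 counts in all 511 selected SHH cells, which allows up to 0.216 CPM. The notochord list, summed without its rule genes SHH and FOXA2, was at 0 to 25.6 CPM per tag (median 4.09). In ciliated cells that sum was 0 to 22.9 (median 5.05). The endoderm or epithelium list summed to 0 to 51.5 CPM (median 16.0) against 1.66 to 45.6 (median 12.5), and CDH1, its 1 tested gene, did not pass. The neuronal list summed to 573 to 4072 CPM (median 1957) against 1199 to 3491 (median 1823), so transcripts of neurons were present in both classes; their part in the results was not tested.

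**Figure D5:**
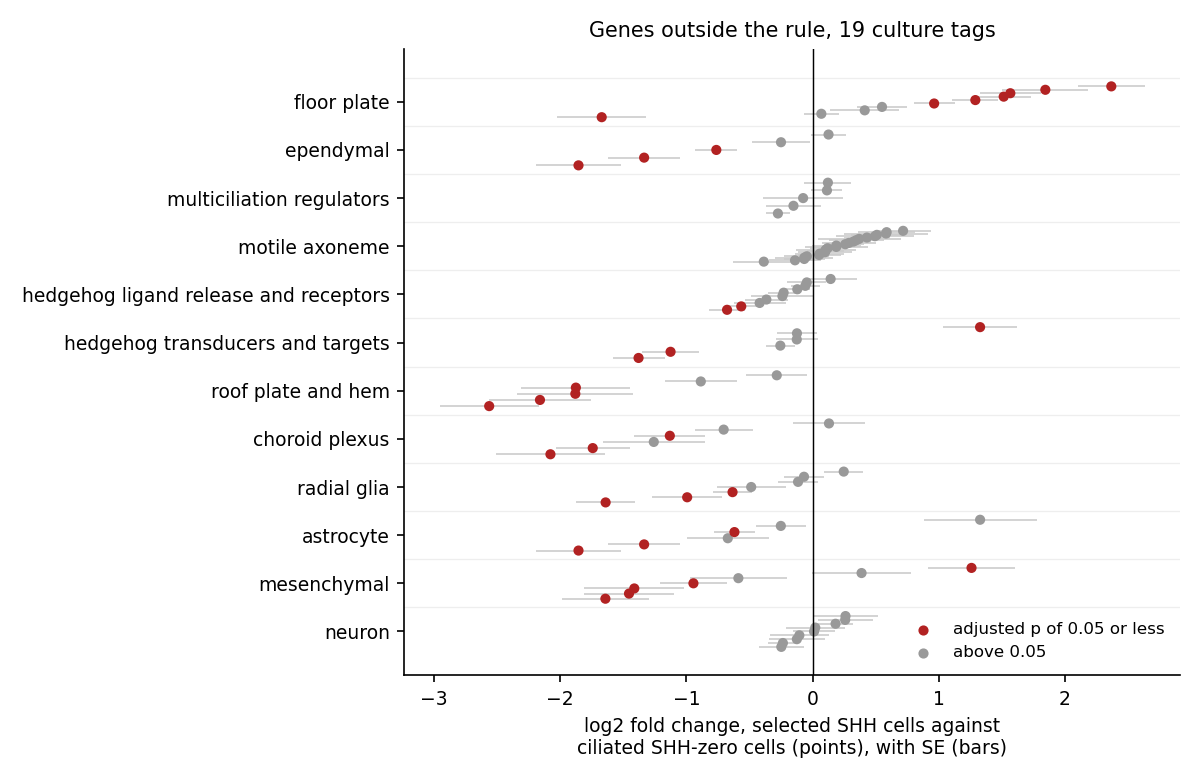
Log2 fold change (x axis; points, with SE as bars) of selected SHH cells against ciliated SHH-zero cells over 19 culture tags, for tested genes of 12 lists (y axis); red points have an adjusted p of 0.05 or less. Floor plate genes reach 2.37, roof plate and hem genes lie between -2.56 (RSPO1) and -0.28 (BMP6), FOXA1 is the highest floor plate gene, and axoneme genes lie around 0.

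Selected SHH cells were also set against SHH-only cells, which had SHH but none of the 6 genes, TTR or MKI67, to see what marks these cells among cells with SHH. The classes are separated by the rule itself, so higher ciliary or floor plate genes in the selected cells are near to what the rule used. In 7 tags with at least 10 of each (162 and 259 cells), 2 of 10727 genes were higher (0.0186%) and none lower by edgeR. The unadjusted p was under 0.05 for 1548 genes, and DESeq2 called 308 higher and 38 lower. The 2 genes, ENSG00000265844 (5.00 ± 0.60) and ENSG00000285367 (2.63 ± 0.30), are long non-coding RNAs, the first a neighbour of GALR1 on chromosome 18. Neither passed without the 3DFusi AcMor 4 or the 3DFusi Vehic 1 tag. No floor plate gene of 11 tested passed (median log2 fold change 2.02, all 11 above 0) and no axoneme gene of 24 (median 2.37, all above 0).

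The 2DProto3Wu tags held 184 of the 259 SHH-only cells of that comparison, and its count of calls moved with several settings. Without the 2 tags of 2DProto3Wu, 423 genes were higher (5.15%) and 41 lower (0.499%), among them 5 of 10 floor plate and 20 of 22 axoneme genes, all higher. Leaving out 1 of its tags gave 120 or 70 higher genes. Other settings, which also change the cells or tags that enter, gave 747 higher and 229 lower with tags of at least 5 cells, 535 and 89 with at least 3 of the 6 genes, and 277 and 61 without the deepest cells. What moves the count was not tested. With selected cells that had at least 2 of the 4 ciliary genes, 118 genes were higher (1.25%) and 1 lower (0.0106%).

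Selected SHH cells of 3DFusi were compared with those of 2DCocu (8 tags with 212 cells and 6 tags with 119), with the treatment ending as a covariate. Of 10430 genes tested, 770 were higher in 3DFusi (7.38%) and 1069 lower (10.2%). No tag of 2DMono and none of 3DMono held 10 selected cells, so that comparison could not be made. Of the axoneme list, 20 of 24 were higher in 3DFusi and none lower, with a median of 1.60 against 0.03 for all genes. The cells of these arrangements met the rule unequally: 55.8% in 3DFusi and 6.96% in 2DCocu had 4 or more of the 6 genes. Most of the 6 are ciliary, so higher axoneme genes in 3DFusi are near to what the rule used. DNAH11, a dynein heavy chain, ran from 121 to 459 CPM in 3DFusi (median 224) and from 22.1 to 63.5 in 2DCocu (median 34.7). DTHD1, a gene of the rule, ran from 57.7 to 267 against 0 to 11.1, which is given without a test.

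FOXA1 and NTN1 did not pass the test between the arrangements, while other floor plate genes did. FOXA1 differed by 0.63 ± 0.25 (adjusted p = 0.0851) and NTN1 by 0.29 ± 0.21 (0.391), with overlapping tags for each. CORIN (3.81 ± 0.57), LMX1B (1.95 ± 0.41) and SLIT2 (1.63 ± 0.26) were higher in 3DFusi with no overlap, and SLIT2 ran from 1222 to 4259 CPM (median 2732) against 569.8 to 894 (median 661). FOXA1 passed without the 3DFusi AcMor 4 tag (0.74, adjusted p = 0.039) and in 2 of 4 other settings, with tags of at least 5 selected cells and without the deepest cells, but not with DESeq2 or without a filter.

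Genes of position along the neural tube differed as well. EN2, a midbrain and hindbrain factor, ran from 5.83 to 33.7 CPM in selected 3DFusi cells (median 18.4) and from 0 to 4.75 in 2DCocu (median 0). HOXB3 ran from 0 to 41.1 (median 14.4) against 0 to 1.84 (median 0), and HOXA3 was higher by 3.60 ± 0.84 on the log2 scale. The ciliated SHH-zero cells showed the same order: HOXB3 ran from 8.07 to 73.5 CPM in 3DFusi (median 23.3) and from 0 to 1.21 in 2DCocu, and the contrast between the cell classes did not differ between the arrangements for HOXB3 (adjusted p = 0.96) or EN2 (0.34). ALDH1L1, an astrocyte enzyme, was lower in 3DFusi by 5.99 on the log2 scale: selected cells ran from 0 to 4.61 CPM against 12.7 to 165 in 2DCocu (median 94.1), and ciliated cells from 0 to 9.64 against 101 to 148.

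Other listed genes moved in both directions. The receptor PTCH1 was higher in 3DFusi by 1.29 ± 0.27, BOC by 0.78 ± 0.26 and CDH1, an epithelial cadherin, by 3.22 ± 0.68. KCNJ6 (-2.99 ± 0.43), GAP43 (-2.01 ± 0.25), SYT1 (-1.33 ± 0.27), GFAP (-3.23 ± 0.57) and ROBO2 (-1.50 ± 0.51) were lower. BOC and ROBO2 did not pass after leaving out any of 8 and 10 single tags. Those named by their size of change were KCNJ16, a potassium channel (6.79 ± 0.69), with the overlapping antisense gene ENSG00000230258 (4.97 ± 0.69), HOXB-AS3 (6.58 ± 0.90), which overlaps HOXB3, LINC02301 (4.74), LINC02899 (4.32), EN2, ENSG00000251438, which overlaps part of DTHD1 in antisense (4.73), and ENSG00000289578, ENSG00000289133 and ENSG00000289426 (5.26, 4.37 and 4.34). DTHD1 is a gene of the rule, and no label says whether the counting used strand. Reads in the stretch that DTHD1 shares with ENSG00000251438 therefore cannot be told apart. The lower side held LINC02211 (-7.31 ± 0.42), LSP1P4 (-6.99), ENSG00000248605 (-6.47), ALDH1L1, LINC00491 (-5.86), ADAMTS18 (-5.76), LINC00906 (-5.74), LINC02228 (-5.46) and LINC00492 (-4.85). LINC02211 overlaps LINC02228 on the opposite strand, and LINC00491 overlaps LINC00492 likewise, so reads in those shared stretches cannot be told apart either. PLSCR5 also met the rule, at 1.84 to 24.3 CPM in 2DCocu and 0 in all 8 3DFusi tags. Most of the others were at 0 in at least 1 tag of the lower group, where a fitted fold depends on the prior count.

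Treatment endings changed no gene in the selected SHH cells by edgeR at an adjusted p of 0.05. The comparison could be fitted for AcMor in 2DCocu (2 against 4 tags) and for AcCoc (2 against 3) and AcMor (3 against 3) in 3DFusi. Each gave 0% called, with unadjusted p under 0.05 for 372, 525 and 211 genes of 7503, 9806 and 9806 tested. DESeq2 called 1, 22 and 0 genes. Groups held 30 to 89 cells, and the smallest change that these fits could detect was not tested. The absence of calls therefore does not show that no gene changed.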

How the data were processed

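The deposited matrix holds the authors' estimated counts per gene and cell (60286 genes, 43693 cells; 54.3% of the entries are whole numbers), not scaled to depth. Salmon 1.7.0, alevin, Seurat 4.1.1 and the build hg38 are named in the submitters' processing notes; no header or label names the annotation, the cell filters or the use of strand. Arrangement, treatment ending and replicate number were read from the start of the cell names. Totals per cell ran from 3375 to 511102 counts.

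Expected counts were summed per culture tag and cell class, rounded to whole numbers, scaled by TMM and filtered by expression, and tested with edgeR 4.0.16 (R 4.3.3, limma 3.58.1) by the quasi-likelihood test with Benjamini-Hochberg adjustment over all genes tested. A tag entered with at least 10 cells of a class. The tag was a block between cell classes, the treatment ending a covariate between 3DFusi and 2DCocu. DESeq2 1.42.0 was an alternative, and the fitting code was tested on simulated data. Shares were compared by exact permutation of the tags within treatment endings, in Python 3.11.15 with scipy 1.17.1. Levels are CPM of the deposited counts summed per tag. Thinning drew 5000 counts from each cell.

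Named genes were the listed genes and, per comparison, up to 10 with the largest rise and 10 with the largest fall among those that passed, with at least 10 CPM in the higher class and the same direction in every tag or no overlap. A gene counted in the floor plate list is not reported here. The selection rule and the gene lists were chosen with earlier results of these data known. No doublet caller was run; cells above the 95th percentile of totals were left out in an alternative. Other alternatives changed the filter, the minimum of cells, the depth matching, the entry or number of genes required, the block and single tags. Leaving out 2DProto3Wu, single arrangements, contrasts within arrangements, the stricter ciliary requirement and the block on the tag number were chosen after seeing the data.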

Additional observations from a re-analysis of the deposited data

Results flagged for a closer look

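In 5 of 30 groups of 4 to 10 tags looked at (16.7%), a single tag stood apart from the others by Dixon's criterion. Its chance rate of about 1 in 20 groups holds for normally distributed values, which CPM near 0 are not. A tag with any count among tags at 0 is flagged whatever its level. The share flagged therefore cannot be set against that rate. In selected 3DFusi cells, HYDIN was lowest at 465 CPM in AcMor 4 (median 920), and ALDH1L1 was 4.61 CPM in AcMor 4 (median 0). In selected 2DCocu cells, NKX6-1 reached 26.3 CPM in Vehic 1 (median 7.36), SULF1 974 CPM in Vehic 2 (median 582) and HOXB3 1.84 CPM in Vehic 3 (median 0).

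Only genes named in the text were looked at for differences between arrangements. The contrast of selected SHH cells with ciliated SHH-zero cells differed for 26 gene and arrangement pairs by edgeR's quasi-likelihood test. Over all 13118 genes tested, the contrast of 3DFusi was higher than that of 2DCocu for 1.49% and lower for 0.991%. Against 2DProto3Wu these shares were 0.9% and 0.29%. Between 3DFusi and 2DCocu, axonemal genes had the larger contrast in 3DFusi: SPAG6 by 3.03 on the log2 scale, DNAH11 by 2.45, CFAP299 by 2.14, DNAI1 by 1.695, HYDIN by 1.42 and DNAH7 by 1.00. The ciliary regulator RFX3 had 0.72. Of the floor plate genes, CORIN had 2.94, SLIT2 1.56 and SULF1 1.32. The neighbours TTC6 and ENSG00000259048 had 1.82 each, and SLC1A3, a glial glutamate transporter, had 1.12. The contrast was lower in 3DFusi for the potassium channel KCNJ6 (-2.16) and the neuronal genes GAP43 (-1.17) and SYT1 (-0.90). Adjusted p-values ran from 2.46e-06 (SPAG6) to 0.0449 (KCNJ6 and SYT1).

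Between 3DFusi and 2DProto3Wu, the contrast was larger in 3DFusi for CFAP299 (5.13), CORIN (3.43), DNAI1 (3.26), RSPH1 (2.75), SULF1 (2.64), DNAH7 (2.44), NTN1 (2.42), SLIT2 (2.38), HYDIN (2.26) and SLIT1 (1.87), with edgeR adjusted p-values from 0.000957 to 0.036. These contrasts share the 3DFusi tags, and 2DProto3Wu had 2 tags.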

How the results depend on the processing

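Selected SHH cells are few per tag, the labels do not define the tags, and totals differ between the cell classes, which limits small changes most. Of 113 gene results, 67 kept their direction and their side of the threshold in every setting run. Over 2887 gene and setting pairs, 2685 did so, 111 lost the call, 46 gained one, 39 changed sign with no call in either fit and 6 changed sign with a call in 1 of the fits, none with opposite calls in both: CORIN was -0.0879 with 2DCocu tags only, SPAG6 -1.39 with 2DCocu tags only, DNAI1 0.73 and HYDIN 0.66 with at least 3 of the 6 genes, and DNAI1 0.73 and HYDIN 0.75 with 3DFusi tags only. The cause was not tested, here and for the values below.

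The share difference of 3DFusi against 2DCocu passed with an entry of 2 or more (1.34 points, adjusted p = 0.00219), with at least 3 of the 6 genes (1.27, 0.00912) and after thinning (1.03, 0.0172), by exact permutation, and ran from 0.752 to 1.55 without single tags (passing in 3 of 22). 3DFusi against 3DMono passed with an entry of 2 or more (2.01, 0.04) and ran from 2.51 to 3.71 without single tags. 2DCocu against 2DMono with Vehic tags only was 2.18 (exact adjusted p = 0.4; the 15 arrangements of those tags cannot give a p under 0.05), and 1.58 to 1.86 without single tags. 3DMono against 2DMono was -0.000428 with an entry of 0.5, -0.179 with Vehic tags only and -0.0436 to 0.0766 without single tags. AcMor against Vehic in 2DMono was -0.00596 with at least 3 genes and -0.179 to 0.182 without single tags.

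Against ciliated cells, 313 higher and 494 lower genes became 89 and 111 with no replicate block, 114 and 188 with at least 20 cells of a class, 1049 lower without a filter, 750 lower with at least 5 cells, 293 lower with depth-matched cells, 503 higher with at least 3 of the 6 genes and 312 lower with at least 2 ciliary genes. Without single tags they ran from 238 to 330 higher and 369 to 557 lower.

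Against SHH-only cells, 2 higher and 0 lower became 58 and 1 with no replicate block, 308 and 38 with DESeq2, 651 and 82 without a filter, 747 and 229 with at least 5 cells, 277 and 61 without the deepest cells, 535 and 89 with at least 3 genes, 423 and 41 without 2DProto3Wu, 118 and 1 with at least 2 ciliary genes, 305 and 28 with 3DFusi tags only, 31 higher with matched depth and 0 higher with at least 20 cells. Without single tags they ran from 0 to 120 higher and 0 to 4 lower.

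For treatment, AcMor in 2DCocu gave 1 higher with DESeq2, 13 higher and 12 lower without a filter, 2 and 2 without the deepest cells, and 0 to 2 higher and 0 to 1 lower without single tags. AcCoc in 3DFusi gave 6 and 16 with DESeq2, 34 and 126 without a filter and 5 higher without the deepest cells. AcMor in 3DFusi gave 24 and 28 without a filter.

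Replicate numbers of the tags are not said to mark a shared source. Deviations of tags with the same number correlated at 0.226, 0.0441 and 0.0822 (3DFusi AcMor), 0.0869 and 0.0568 (2DCocu AcMor), and -0.274 and -0.0445 (3DFusi AcCoc). Each deviation was taken from the mean of a small group of tags, which ties these correlations to each other. They therefore cannot decide whether tags with the same number share a source. The replicate block on that number gave 1 higher gene for AcCoc in 3DFusi and changed no other count of calls. Paired by number, the AcCoc difference in shares was -1.62 points in 2DCocu (exact p = 0.125, adjusted 0.667) and -1.90 in 3DFusi.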
